A study of Mus musculus with 5 samples.

Results

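The ISG15 conjugation system is described here through the transcripts of 5 mouse genes, Isg15, Uba7, Ube2l6, Herc6 and Usp18. They were taken as every probe set that the platform annotation pairs with exactly 1 of these symbols. Each gene had 1 such probe set, which gave 5 of the 23521 single-symbol probe sets on the array and 5 of 22180 genes. All 5 also belong to the 12311 genes whose highest value reached the median of its array, and all 5 would pass on the vehicle array alone. Array medians lay between 5.37 and 5.44 on the log2 scale.

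RNA came from mouse embryonic fibroblasts (MEFs), labelled as primary cells, without endogenous STING, an adaptor of cytosolic DNA sensing, into which its constitutively active variant R284S had been put back. All groups share the STING-/- background and the variant, so no group shows the cells without it. Cells received Compound C, doxorubicin, GSK 690693, tofacitinib or vehicle for 9 hours, and each of the 5 groups has 1 array. The sources used here do not give the doses, the vehicle, the construct that carried the variant or the number of clones. Compound C (dorsomorphin) inhibits AMPK, tofacitinib blocks JAK kinases, which act below the interferon receptor, and GSK 690693 blocks AKT and, in addition, AMPK. Doxorubicin is a topoisomerase II poison. With 1 array per group no difference has a replicate check, and no test or p-value is given.

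ISG15 is a ubiquitin-like protein that interferon induces and that cells attach to other proteins by an enzyme cascade like that of ubiquitin. UBA7 activates ISG15 as the E1 enzyme, UBE2L6 carries it as the E2 enzyme, and HERC6 is the main E3 ligase in the mouse, a role that HERC5 has in humans. USP18 removes ISG15 from its targets. Apart from its protease activity, USP18 binds the IFNAR2 chain of the type I interferon receptor together with STAT2 and dampens JAK1 signalling, so it is known both as a deconjugating enzyme and as a feedback inhibitor. The genes of this system are classical targets of ISGF3, a transcription factor complex with STAT2 and IRF9 among its subunits that binds interferon-stimulated response elements (ISREs).

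The cells carried fibroblast transcripts on every array. All 9 fibroblast markers examined passed the filter, with a median log2 signal between 10.49 and 10.67 on the 5 arrays. Of 8 leukocyte markers 3 passed, and the median of all 8 lay between 4.32 and 4.65. Ptprc and Adgre1, which define leukocytes and macrophages, did not pass, at 3.65 to 3.86 and 3.28 to 3.65. Cd68 passed, at 6.56 to 7.63. Of 5 epithelial markers 4 passed, and the median of all 5 lay between 5.35 and 5.57. Epcam, at 3.59 to 3.92, did not pass. All 4 skeletal muscle markers passed, with a median between 5.81 and 6.255, and Acta1 read 9.35 to 10.36. Of 4 neural markers 3 passed, and of 4 endothelial markers 2. The probe set of Sting1 read between 5.07 and 5.25 on the 5 arrays and did not pass the filter. Where this probe set lies relative to the knockout and the added variant is unknown, so it checks neither.

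The upstream sequences are shown because the 5 genes are read below as a set of interferon targets that did not read alike on every array. RefSeq promoter windows of the build GRCm38.p6 were matched for 4 of the 5 genes, Isg15, Uba7, Ube2l6 and Herc6, and the 250 bases before the annotated start were searched on both strands. The window of Isg15 (chr4:156200819-156201068, minus strand) held 3 overlapping matches to the ISRE core (GAAA, any 2 bases, GAAA) between 78 and 57 bases before the start, which are in capitals. The window of Uba7 (chr9:107975317-107975566, plus strand) held no match to that core but 2 copies of the half-site GAAAC on the opposite strand, 28 to 12 bases before the start, which are in capitals as GTTTC.
Isg15: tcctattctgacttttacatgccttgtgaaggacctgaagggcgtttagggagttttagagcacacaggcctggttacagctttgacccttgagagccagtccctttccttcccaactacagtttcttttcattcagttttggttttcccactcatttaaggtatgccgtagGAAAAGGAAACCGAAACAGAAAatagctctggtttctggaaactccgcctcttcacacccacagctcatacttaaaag
Uba7: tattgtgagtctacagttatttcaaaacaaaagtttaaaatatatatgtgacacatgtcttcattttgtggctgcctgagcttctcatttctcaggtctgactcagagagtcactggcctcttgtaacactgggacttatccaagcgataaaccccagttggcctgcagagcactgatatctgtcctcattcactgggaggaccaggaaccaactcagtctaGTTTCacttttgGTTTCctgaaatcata
Herc6 had 1 half-site, 144 to 140 bases before the start, and Ube2l6 had neither. Isg15 itself had 5 half-sites, some of them inside the ISRE cores. No window of the 4 held the STAT dimer motif (TTC, any 3 bases, GAA). Of 32851 promoter windows of the same length, 2.98% held the ISRE core, 39.7% the half-site and 7.02% the STAT motif. Among other interferon-stimulated genes listed for comparison, 28 of 74 with a window (37.8%) held the ISRE core, against 3.46% of all 27025 genes with a window. A match describes letters in a window and not a binding site, and a window without a match says nothing of factors that bind elsewhere.

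**Figure D1:**
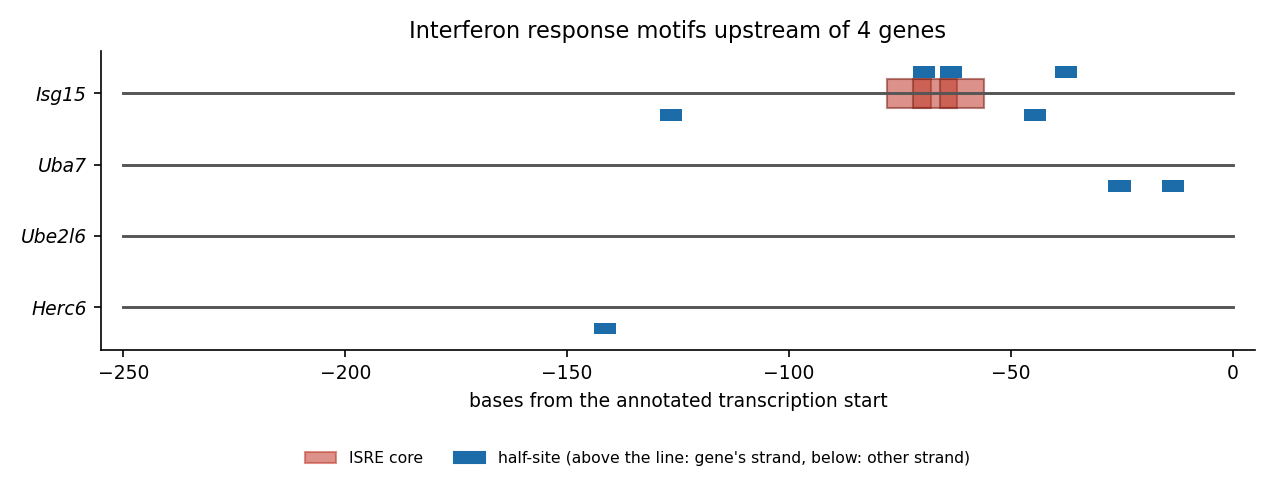
Motif matches in the 250 bases upstream of 4 genes, by distance in bases from the annotated transcription start. Red boxes on the line are ISRE cores, and blue boxes are half-sites, above the line on the gene's strand and below it on the other. The 3 ISRE cores of Isg15 overlap within 78 to 57 bases of the start, and the other genes have none in this window.

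Isg15, the modifier itself, read below vehicle with all 4 compounds, though by modest amounts. Its log2 signal was 10.07 with Compound C, 10.40 with doxorubicin, 9.98 with GSK 690693, 10.29 with tofacitinib and 10.71 with vehicle. Vehicle was the highest array, and the 4 compound arrays lay within 0.42 of each other. The differences from vehicle were −0.64, −0.31, −0.73 and −0.42 in the same order of compounds. With GSK 690693 this is a 1.66-fold lower signal and with Compound C a 1.56-fold lower signal, and the other pair stayed under 1.5-fold. In bulk RNA, fewer cells that make a transcript and less of it per cell cannot be told apart.

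Uba7, the E1 enzyme, was highest with doxorubicin and lowest with GSK 690693. It read 7.27 with Compound C, 8.08 with doxorubicin, 6.88 with GSK 690693, 6.92 with tofacitinib and 7.54 with vehicle. The arrays of GSK 690693 and tofacitinib were close to each other, and the doxorubicin array stood 0.54 above vehicle. Against vehicle the gene was 1.58-fold lower with GSK 690693 and 1.54-fold lower with tofacitinib.

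Ube2l6, the E2 enzyme, was the one gene of the 5 that did not read below vehicle with Compound C. Its signal was 8.27 with Compound C, 8.62 with doxorubicin, 7.83 with GSK 690693, 7.55 with tofacitinib and 8.24 with vehicle. Compound C and vehicle differed by 0.03 on the log2 scale, whereas the tofacitinib array was the lowest, at −0.69 from vehicle or 1.61-fold lower.

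Herc6, the E3 ligase, showed the largest difference of the set with GSK 690693. The signal was 8.87 with Compound C, 9.48 with doxorubicin, 8.30 with GSK 690693, 8.74 with tofacitinib and 9.28 with vehicle. Doxorubicin was again the highest array. GSK 690693 stood 0.98 below vehicle, a 1.97-fold lower signal, and 75 of the 12311 genes had a lower difference on that array. With tofacitinib the difference of −0.54 was 1.45-fold and with Compound C, at −0.41, it was 1.33-fold.

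Usp18, the deconjugating enzyme and feedback inhibitor, stood apart from the other 4 genes on the tofacitinib array. It read 10.56 with Compound C, 10.84 with doxorubicin, 10.25 with GSK 690693, 8.10 with tofacitinib and 10.87 with vehicle. Doxorubicin and vehicle were 0.03 apart, and tofacitinib was far below the next lowest array, GSK 690693. The difference between tofacitinib and vehicle was −2.77, a 6.82-fold lower signal. Only 1 of the 12311 genes was lower against vehicle on that array, F830016B08Rik at −3.01, which is named here because of its value. With GSK 690693 the difference of Usp18 was −0.62, or 1.54-fold.

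**Figure D2:**
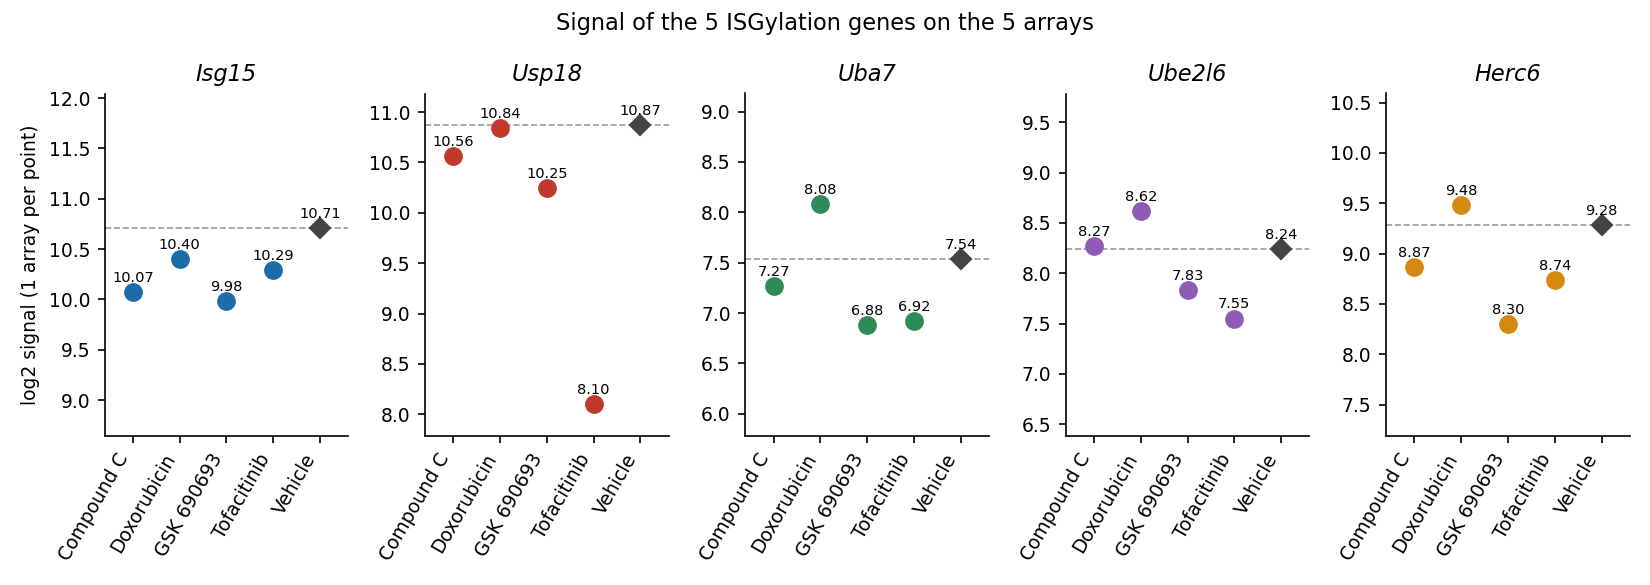
Log2 signal of each of the 5 genes on the arrays of 4 compounds (circles) and vehicle (diamonds), 1 array per point, with the vehicle level as a dashed line. All panels span the same number of log2 units, and levels are not comparable between panels. Usp18 with tofacitinib, at 8.10 against 10.87 with vehicle, is the point farthest from its vehicle array.

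As a set, the 5 genes read below vehicle with GSK 690693 and with tofacitinib. With GSK 690693 all 5 were below vehicle, between −0.98 and −0.41, and 4 of the 5 were at least 1.5-fold lower. The exception was Ube2l6. On that array 3.21% of the 12311 genes were at least 1.5-fold lower and 2.40% at least 1.5-fold higher. The median of the 5 was −0.66, against 0.04 over all genes. With tofacitinib all 5 were again below vehicle, and 3 of the 5, Usp18, Uba7 and Ube2l6, were at least 1.5-fold lower, where 2.0% of all genes were lower and 2.66% higher by that fold. The median was −0.62, against 0.09 over all genes. At least 2-fold lower with tofacitinib was Usp18 alone, among 0.414% of all genes. Without Usp18 the other 4 lay within 0.27 of each other with tofacitinib, from −0.69 to −0.42.

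Several of these values sit close to the 1.5-fold line, which is 0.585 on the log2 scale. After each array was centred on its median, 3 genes counted as lower with GSK 690693 and 2 with tofacitinib, and after quantile normalization the counts were 4 and 4. By the same scalings, 2.33% of all genes were lower with GSK 690693 and 1.51% with tofacitinib after centring, and 3.67% and 2.64% after quantile normalization. Centring also changed the background. The share of lower genes among all those at least 1.5-fold apart was 57.2% with GSK 690693 as deposited, 38.8% after centring and 65.3% after quantile normalization. With tofacitinib these shares were 42.9%, 24.9% and 66.6%, and with Compound C 62.2%, 52.1% and 56.6%. All 5 genes remained below vehicle with GSK 690693 and with tofacitinib under both scalings. The choice of reference array mattered more. Against the median of the other 4 arrays in place of vehicle, 1 of the 5, Herc6 (−0.78), was lower with GSK 690693. By that reference 2 were lower with tofacitinib, and Isg15 stood at 0.055 with tofacitinib. No share of all genes is given for this reference, so these counts have no background beside them.

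With Compound C, 1 of the 5 genes, Isg15, was at least 1.5-fold lower and 0 were higher. That comparison had 9.99% of all genes lower and 6.07% higher by this fold, so 1 gene of 5 is no result about the set. Uba7, at −0.27, Usp18, at −0.31, and Herc6, at −0.41, were below vehicle by less, and Ube2l6 was 0.03 above it. The median was −0.31, against −0.02 over all genes.

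With doxorubicin, 0 of the 5 genes passed 1.5-fold in either direction, although 14.2% of all genes were lower and 11.5% higher by that much. Isg15, at −0.31, and Usp18, at −0.03, were below vehicle, and Herc6 (0.20), Ube2l6 (0.38) and Uba7 (0.54) were above it. All 5 lay within the standard deviation over all genes of 0.584. When vehicle was replaced by the median of the 4 remaining arrays, Isg15 read 0.22, on the same side as the other genes. After centring, Uba7 reached 0.59 and passed the fold, and Usp18 moved to 0.02 above vehicle. By that scaling 14.005% of all genes were higher by 1.5-fold.

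**Figure D3:**
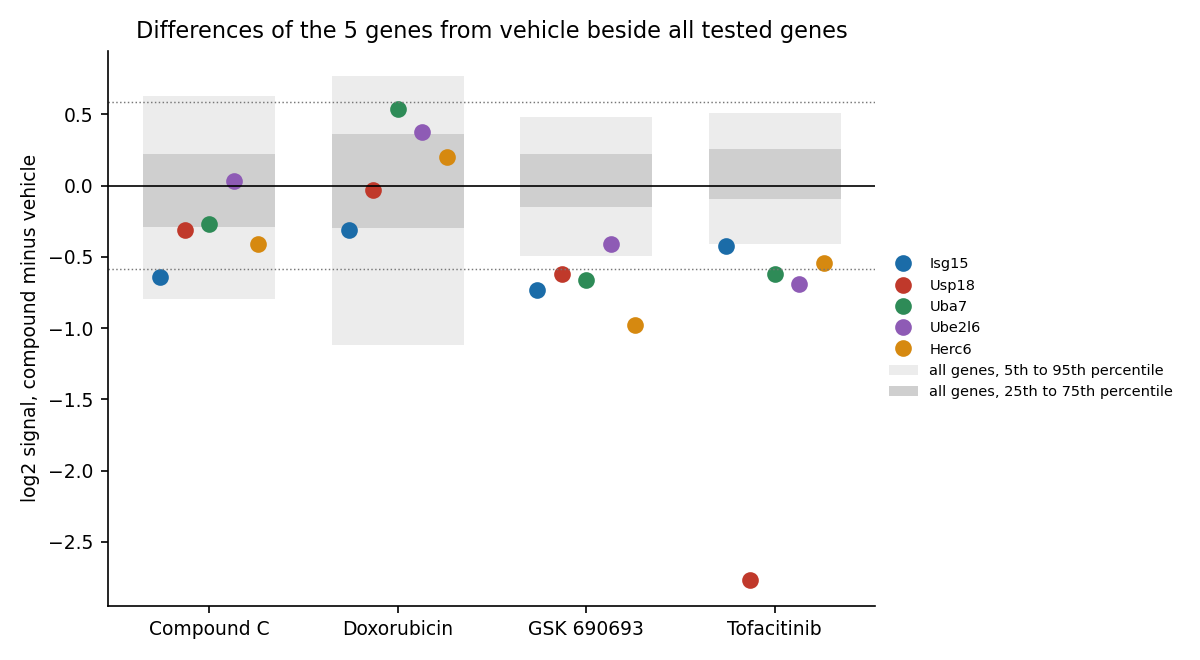
Difference in log2 signal, compound minus vehicle, for the 5 genes (coloured points), beside the 25th to 75th (dark grey) and 5th to 95th percentiles (light grey) of 12311 genes. Dotted lines mark 1.5-fold. With GSK 690693 and tofacitinib all 5 points lie below the dark band, and Usp18 with tofacitinib, at −2.77, lies farthest from it.

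The spread over all genes differed between the arrays and bears on how these sizes are read. The standard deviation of the difference from vehicle was 0.455 for Compound C and 0.584 for doxorubicin, while GSK 690693 had 0.306 and tofacitinib 0.295. The closest pair of arrays, tofacitinib and GSK 690693, had a standard deviation of 0.258. That value mixes noise with differences between the treatments over all genes, and it does not bound the noise of any single gene. Isg15 differed from vehicle by similar amounts with Compound C and GSK 690693, but 1026 genes lay lower than it on the first array and 181 on the second.

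Because each comparison above uses the same vehicle array, the compounds were also set against each other. Tofacitinib against GSK 690693 separated the 5 genes. Usp18 stood at −2.15 with tofacitinib, a 4.44-fold lower signal, and only Adamts5, at −2.59, was lower among all genes in this comparison. Isg15 (0.31), Herc6 (0.44) and Uba7 (0.04) were higher with tofacitinib than with GSK 690693, and Ube2l6 (−0.28) was lower. At least 1.5-fold lower was 1 of the 5 genes, where 1.15% of all genes were. These were also the 2 arrays with the smallest spread between them over all genes.

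Against Compound C, tofacitinib had 2 of the 5 genes at least 1.5-fold lower, Usp18 (−2.46) and Ube2l6 (−0.72), beside 5.50% of all genes. Isg15 was 0.22 higher. GSK 690693 had all 5 genes below Compound C, from −0.57 for Herc6 to −0.09 for Isg15, with 0 of the 5 at 1.5-fold where 5.18% of all genes were lower by that much. Of the 5 genes, Isg15 was the one on which the arrays of GSK 690693 and Compound C were closest. In that comparison 36.3% of all genes had a difference at or below that of Isg15.

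Doxorubicin read highest among the compounds for each of the 5 genes. Tofacitinib had 4 of the 5 at least 1.5-fold lower than doxorubicin, beside 5.69% of all genes, with Uba7 at −1.16 and Ube2l6 at −1.07. GSK 690693 also had 4 of the 5 lower than doxorubicin, beside 11.3% of all genes, with Uba7 at −1.20 and Herc6 at −1.18. In both comparisons Isg15 was the exception, at −0.11 and −0.42. Doxorubicin against Compound C had 2 of the 5 at least 1.5-fold higher, Uba7 (0.81) and Herc6 (0.61), where 15.4% of all genes were.

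The transcript signal of Isg15 relative to that of Usp18 differed most from vehicle with tofacitinib. The difference of Isg15 from vehicle minus that of Usp18 was 2.35 with tofacitinib, against −0.33 with Compound C, −0.28 with doxorubicin and −0.11 with GSK 690693. On the array of tofacitinib the signal of Isg15 relative to Usp18 was thus 5.10-fold that on the vehicle array. This sets changes side by side and not levels, since probe sets of different genes are not on one scale. The value of 2.35 largely restates the low Usp18 signal on the tofacitinib array. Proteins and ISG15 conjugates were not measured.

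The interferon receptor and ISGF3 genes were lower with tofacitinib in part. Of 9 genes measured, 3 were at least 1.5-fold lower with tofacitinib and 0 higher, where 2.0% and 2.66% of all genes were. These were Irf9 (−1.61) and Stat2 (−1.22), subunits of ISGF3, and the JAK inhibitor gene Socs3 (−1.08). A second probe set of Socs3 read −0.55. The receptor chains Ifnar1 (0.27) and Ifnar2 (−0.07), the kinases Jak1 (0.04) and Tyk2 (0.11), Socs1 (−0.03) and the phosphatase Ptpn1 (−0.04) were within 1.5-fold. USP18 acts on IFNAR2 through STAT2, and of these 3 genes Usp18 and Stat2 read lower with tofacitinib and Ifnar2 did not.

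With GSK 690693 none of these 9 genes was 1.5-fold from vehicle, where 3.21% of all genes were lower and 2.40% higher. A count of 0 of 9 is near those shares. Irf9 was at −0.32, Stat2 at −0.31 and Ifnar1 at 0.32, while 4 of the 5 ISG15 genes were past 1.5-fold on that array. Compound C had Irf9 lower (−0.72) and Stat2 at −0.05. Doxorubicin had 2 of the 9, Irf9 (−0.91) and Socs3 (−0.90), lower where 14.2% of all genes were, with Stat2 at −0.37, while Uba7, Ube2l6 and Herc6 read above vehicle.

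Other interferon-stimulated genes also read lower with 3 of the 4 compounds. The 83 measured include 5 genes that also stand in other lists here, Irf9 and Stat2 of ISGF3, the ligase gene Trim25, and Eif2ak2 and Ddx58, whose products ISG15 modifies. Of the 83, 31 were at least 1.5-fold lower with GSK 690693, 43 with tofacitinib, 32 with Compound C and 10 with doxorubicin. The number higher was 0, 0, 0 and 7, where 2.40%, 2.66%, 6.07% and 11.5% of all genes were higher. The 7 with doxorubicin are 8.43% of the 83, below the share of all genes. As shares, 37.3%, 51.8%, 38.6% and 12.0% were lower, against 3.21%, 2.0%, 9.99% and 14.2% of all genes, so with doxorubicin the share was near that of all genes. Their median differences were −0.47, −0.60, −0.43 and −0.08 in this order. Usp18, at −2.77, was below the lowest of them with tofacitinib, the immunity GTPase gene Iigp1, at −2.74. The next were the GTPase gene Irgm2 (−2.50) and Trim30d (−2.44). The other 4 ISG15 genes lay in the middle of the 83 with tofacitinib, with 38 of them below Ube2l6, 41 below Uba7, 44 below Herc6 and 51 below Isg15. With GSK 690693 the lowest of the 83 were Cmpk2 (−1.73) and Rsad2 (−1.73), which encodes the antiviral enzyme viperin, and 16 lay below Herc6. Rsad2 read −0.38 with tofacitinib. Compound C had Trim30d (−2.66), Trim30a (−2.17) and the RNA sensor gene Tlr3 (−1.84) lowest. With doxorubicin Trim30d (−1.32), Rtp4 (−1.24) and Irf1 (−1.05) were lowest and Ifitm2 (1.22), Gbp5 (1.05) and Ifi27 (1.04) highest.

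**Figure D4:**
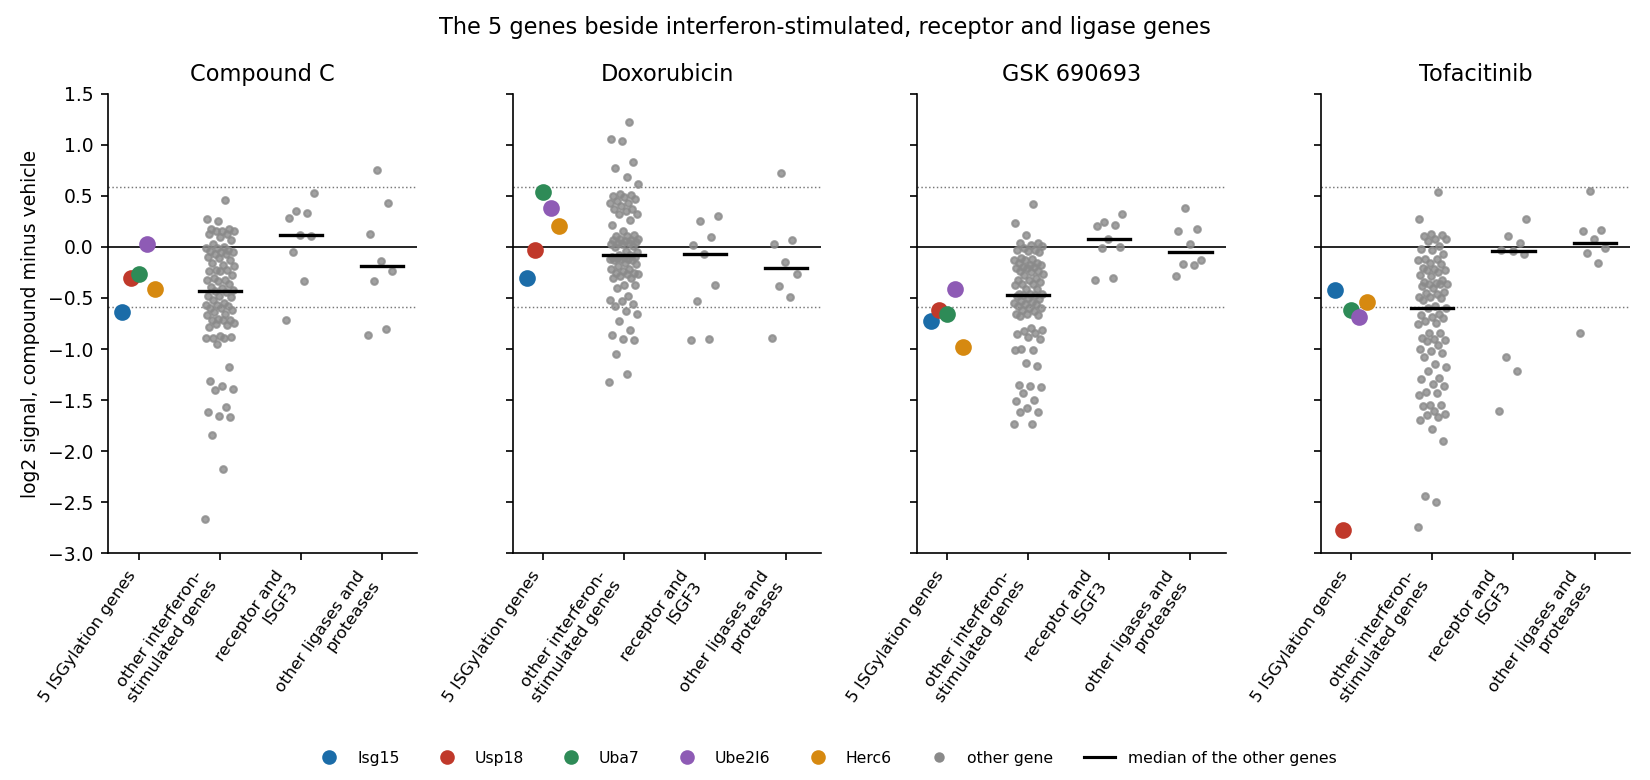
Log2 signal, compound minus vehicle, for the 5 ISG15 genes (coloured) and, in grey, 83 other interferon-stimulated genes, 9 receptor and ISGF3 genes and 8 other ligases and proteases that act on ISG15. Black bars are medians of the grey points and dotted lines mark 1.5-fold. With tofacitinib Usp18 lies at the lower end of all points, and the bars of the receptor and ligase genes lie near 0.

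Other ligases and proteases that handle ISG15 had medians near 0 with GSK 690693 (−0.05) and tofacitinib (0.035), with Trim25 as the exception. TRIM25 and ARIH1 can act as ISG15 ligases, and several ubiquitin proteases cross-react with ISG15 in vitro. Trim25, itself an interferon target, was 1.79-fold lower with tofacitinib (−0.84), lower than 4 of the 5 ISG15 genes, and read −0.13 with GSK 690693. It was the 1 gene of these 8 at least 1.5-fold lower with tofacitinib, where 2.0% of all genes were. Arih1 lay between −0.49 and 0.15 with the 4 compounds. Among 6 cross-reactive proteases with tofacitinib, Usp5 read 0.55, Usp13 0.16, Usp14 0.15, Usp21 0.08, Usp16 −0.01 and Usp2 −0.16. With GSK 690693 they lay between −0.29 for Usp13 and 0.38 for Usp5. Compound C had Usp16 (−0.86) and Usp13 (−0.80) lower and Usp2 (0.75) higher, and doxorubicin had Usp2 (−0.89) lower and Usp5 (0.72) higher. At 1.5-fold, 9.99% of all genes were lower and 6.07% higher with Compound C, and 14.2% and 11.5% with doxorubicin. The medians of the 8 genes were −0.19 with Compound C and −0.21 with doxorubicin.

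Proteins that ISG15 is known to modify or bind were also listed, and 9 of the 12 found on the array passed the filter. With tofacitinib 2 were at least 1.5-fold lower, where 2.0% of all genes were. These were Eif2ak2 (−1.36), which encodes the double-stranded RNA kinase PKR, and Ddx58 (−0.73), which encodes the RNA sensor RIG-I. Both are interferon targets. Irf3, whose product ISG15 stabilises, read 0.57, and Ube2n, an E2 enzyme that ISG15 modifies, read −0.50. With GSK 690693 only Eif2ak2 (−0.62) passed 1.5-fold, where 3.21% of all genes were lower and 2.40% higher. Ddx58 was at −0.41. With doxorubicin 1 of the 9, the cyclin gene Ccnd1 (0.67), was higher, where 11.5% of all genes were. With Compound C none of the 9 passed, where 9.99% of all genes were lower and 6.07% higher. Neither count is a result about these genes. Becn1 was above vehicle with each compound, from 0.28 to 0.57, and Pcna, Tsg101 and Eif4e2 lay between −0.55 and 0.11. Mx1 and both chains of the LFA-1 integrin, a receptor for secreted ISG15 (Itgal and Itgb2), did not pass the filter.

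Each of the 5 genes was next read against its own protein family. With GSK 690693 and with tofacitinib all 5 lay below every relative that passed the filter, as deposited and under both other scalings. The filter matters here for Ube2l6, at −0.41 with GSK 690693. The UBE2 gene Ube2dnl1, which did not pass at log2 signals of 3.05 to 3.87, read −0.82 with that compound. With tofacitinib Usp18 stood at −2.77, and the lowest of 43 other USP genes was Usp25 at −0.58. Of those 43, 0 were at least 1.5-fold lower and 1, Usp28 (0.66), was higher. Both counts are near the shares of all genes, 2.0% lower and 2.66% higher. Ube2l6, at −0.69, was below 24 other UBE2 genes, of which Ube2n was lowest, and its close homologue Ube2l3, an E2 enzyme of ubiquitin, read −0.06. Uba7, at −0.62, was below the 6 other E1 genes measured, of which Uba6 was lowest at −0.19.

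Herc6 stood apart from the other HERC genes with GSK 690693 and with tofacitinib. With GSK 690693 it was at −0.98, against 0.44 for Herc1, 0.47 for Herc2, −0.24 for Herc3 and 0.43 for Herc4. With tofacitinib it was at −0.54, whereas Herc1 (0.68), Herc2 (0.60), Herc3 (0.55) and Herc4 (0.48) were all above vehicle. After quantile normalization the median of these 4 with tofacitinib was 0.44 and 0 of them passed 1.5-fold. By that scaling 2.64% of all genes were lower and 1.32% higher. Isg15, at −0.42, was below 12 other genes of ubiquitin-like modifiers, whose median was 0.18 and lowest member Atg12, at −0.17. The difference between Ube2l6 and its lowest relative with GSK 690693 was small, −0.41 against −0.40 for Ube2w. Uba7 (−0.66 against −0.58 for Uba6) and Usp18 (−0.62 against −0.47 for Usp17ld) were also close to theirs on that array.

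Compound C and doxorubicin gave other pictures. With Compound C, 2 of the 5, Isg15 and Herc6, lay below all their relatives, and with doxorubicin Isg15 did. Doxorubicin had 10 of 43 other USP genes at least 1.5-fold lower, led by Usp42 (−2.30), where 14.2% of all genes were, while Usp18 was at −0.03. On that array 5 of 6 other E1 genes lay below Uba7 (0.54), with Sae1 (0.70) above it, and 23 of 24 other UBE2 genes lay below Ube2l6 (0.38). Compound C had 3 of 6 other E1 genes at least 1.5-fold lower, Nae1 (−0.78), Mocs3 (−0.76) and Uba6 (−0.62), where 9.99% of all genes were, and Uba7 at −0.27. Ubd, the gene of the interferon-induced modifier FAT10, did not pass the filter.

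**Figure D5:**
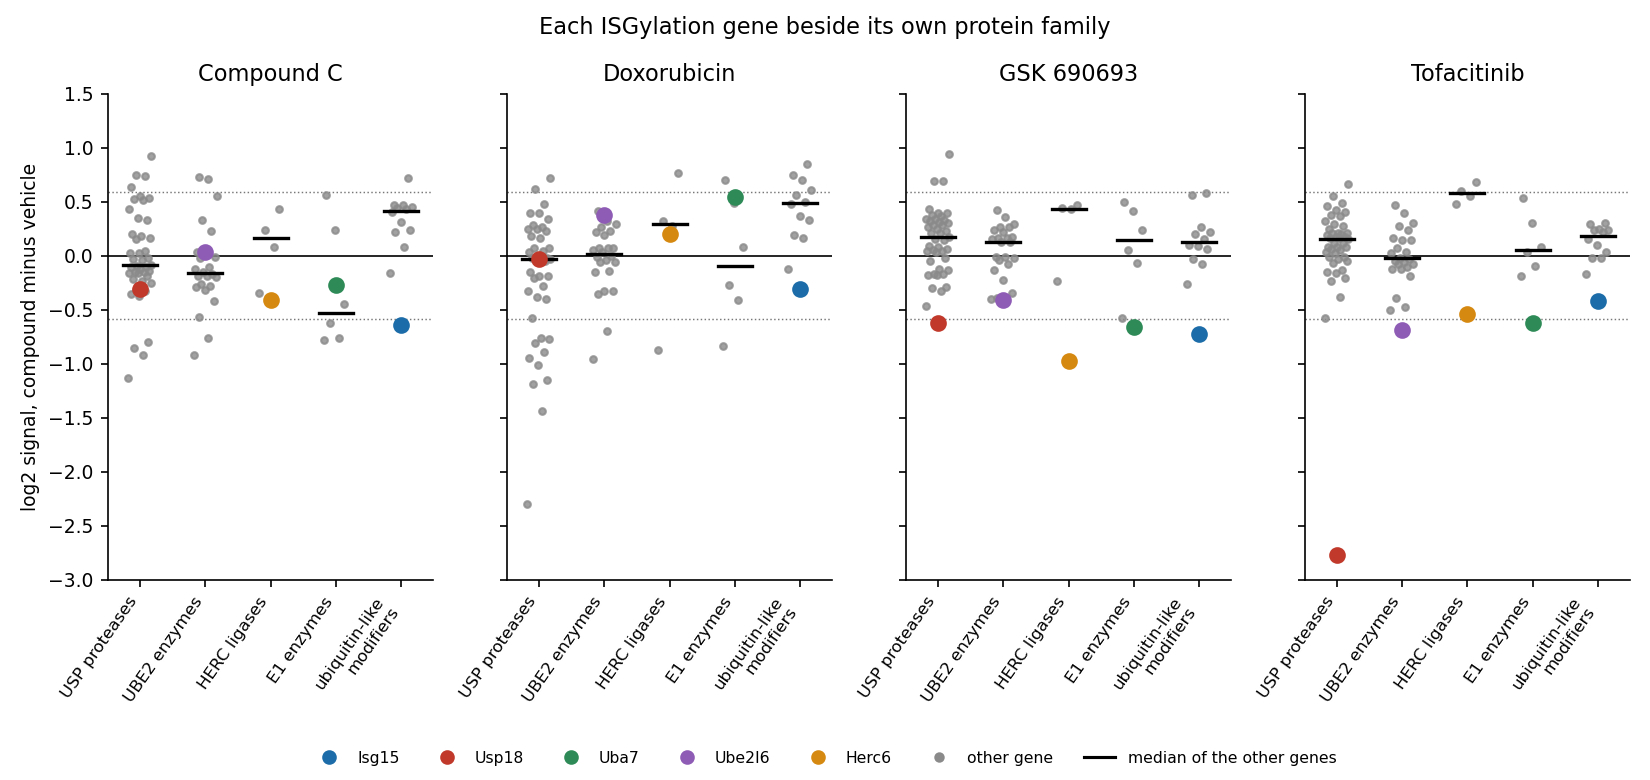
Log2 signal, compound minus vehicle, for each ISG15 gene (coloured) beside the members of its protein family that passed the filter (grey, median as a black bar): 43 USP, 24 UBE2, 4 HERC and 6 E1 genes and 12 ubiquitin-like modifiers. Dotted lines mark 1.5-fold. With GSK 690693 and tofacitinib each coloured point lies below its family, and with doxorubicin Uba7 and Ube2l6 lie in the upper part of theirs.

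The 5 genes were also compared with each other and with all genes by their profiles over the arrays. Likeness was the root mean square distance over the 5 arrays between log2 profiles, each centred on its own mean. The profiles were not scaled, so the size of a change counts as well as its shape. The closest pair among the 5 was Uba7 and Herc6, at 0.17, followed by Uba7 and Ube2l6, at 0.18. The E1, E2 and E3 genes therefore lay closer to each other than any of them did to Usp18, at 0.75 to 0.93. Isg15 was 0.27 from Herc6 and 1.02 from Usp18. The distances to Usp18 include the tofacitinib array, where Usp18 stood at −2.77 from vehicle and the other 4 between −0.69 and −0.42. No distance was taken without that array. The genes nearest to the mean profile of the 5 were Ifi35 (0.07), Gbp10 (0.09), Sfrp1 (0.09), Glrx (0.10), Ifi204 (0.11), Gbp3 (0.11), Oas3 (0.11), Slco2a1 (0.12), Samd5 (0.13) and Podn (0.14). Ifi35, Ifi204, Gbp3, Gbp10 and Oas3 are interferon targets. The median over all genes was 0.48, and Usp18 itself was 0.70 from the mean it helped to form. Isg15 was 0.36 from that mean, with 1590 other genes nearer, and Herc6 was 0.25 from it, with 141 nearer. Ube2l6 (0.12) and Uba7 (0.18) lay closer, with 8 and 21 other genes nearer, so the mean describes some members poorly. Nearest to Isg15 were Ebf1 (0.03), 4933412E12Rik (0.04), Casp8 (0.05), Vsig10l (0.05) and Tox (0.06). With profiles taken over the 4 compound arrays alone, 3 of the 10 genes near the mean and 0 of the 5 near Isg15 were named again, so these names depend on the vehicle array.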

How the data were processed

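The values are log2 signals that the authors deposited, 1 per probe set and array, made with Affymetrix Expression Console 1.3.1.187 per the submitters' processing notes, from 300 ng of total RNA per array per the labels. The sources used here do not give summarisation, background correction or normalization, and the log base was inferred from values between 1.05 and 13.18. Of 41345 probe sets, 23521 had 1 symbol in the platform annotation, 1814 several and 16010 none. Listed genes without a single-symbol probe set were not analysed here. A gene with several probe sets was represented by the one with the highest mean, and it passed the filter if its highest value reached the median of that array.

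Differences are compound minus vehicle, or compound minus compound, counted at 1.5-fold. The number of arrays, 1 per group, limits the precision, and no test was run. The members and lists were chosen with earlier results of these data known. Genes were named by rule: the 5 genes, the 3 ISG15 and interferon signalling lists, the extremes of other lists, and the 10 genes nearest to the mean profile and 5 nearest to Isg15. The name patterns of the USP and UBE2 families were narrowed after seeing the data to drop Usp6nl and Ube2cbp, which are not USP or E2 enzymes. Sequence likeness between proteins was not used, so Ube2l3 was named from background knowledge. Rigi was matched under its older symbol Ddx58. Counting was tested on simulated data. Python 3.11.15, pandas 2.3.3 and numpy 2.4.6 were used.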

Additional observations from a re-analysis of the deposited data

How the results depend on the processing

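Each group holds 1 array, so no sample could be left out and no spread between samples is known. No paired analysis was possible because each group holds 1 array. Centring, quantile normalization, other probe set rules and other filters moved the 20 differences of the 5 genes from vehicle by at most 0.16, and 19 or 20 of the 20 kept their sign, the exception being Usp18 with doxorubicin after centring. After centring, 0 of the 5 genes were lower with Compound C, where 8.33% of all genes were. By the same scaling 1 of the 5, Uba7, was higher with doxorubicin, where 14.005% of all genes were. Neither count is a result about the set. At 2-fold, 0 of the 5 were lower with Compound C, 0 with GSK 690693 and 1 with tofacitinib. With tofacitinib 0.414% of all genes were lower by 2-fold, and no such share is given for the other compounds. The reference array moved 10 of the 20 differences by more than 0.258, the SD between the tofacitinib and GSK 690693 arrays. Against the median of the other 4 arrays, the differences with Compound C were −0.28 for Isg15, 0.015 for Usp18, 0.04 for Uba7, 0.24 for Ube2l6 and −0.14 for Herc6, and 0 genes were lower. With doxorubicin they were 0.22 for Isg15, 0.44 for Usp18, 0.98 for Uba7, 0.585 for Ube2l6, which is on the 1.5-fold line, and 0.68 for Herc6, and 3 genes were higher. Isg15 was at −0.36 with GSK 690693, where 1 gene was lower, and at 0.055 with tofacitinib. By construction this reference holds the other compounds. No share of all genes is given for it, so its counts have no background beside them.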

Other observations

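The genes nearest in profile to Usp18 were looked up after its values were seen. Over the 5 arrays they were Osmr (0.33), which encodes the oncostatin M receptor, Iigp1 (0.39), F830016B08Rik (0.40), Irgm2 (0.45) and Xaf1 (0.46), at root mean square distances above those of the genes nearest to Isg15. Against vehicle, Osmr read −1.87 with tofacitinib, and the other compounds lay between −0.17 and 0.05. Iigp1 read −2.74 with tofacitinib and −1.62 with GSK 690693. Without the vehicle array the 5 nearest again included Osmr, Iigp1, F830016B08Rik and Irgm2.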
